A study of Mus musculus with 2 samples.

Results

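Ion pumps, ion channels and aquaporins were compared between mouse morulae injected with siRNA against leukemia inhibitory factor (LIF) and morulae injected with scrambled siRNA. The members are all gene spots whose name begins with ATPase, FXYD, aquaporin, chloride, potassium or sodium, or with the name of a calcium or transient receptor channel, a glutamate, cholinergic or purinergic receptor, a ryanodine or inositol 1,4,5-triphosphate receptor, or gamma-aminobutyric. This rule used names and no measured value. It found 62 of the 8735 gene spots on each array, which carry 60 of the 6113 gene names. No spot name begins with voltage-dependent anion. Na+/K+ ATPase subunits and aquaporins make up 6 of the 62 spots. The rule also takes in names that are neither pumps nor channels, such as the FXYD regulators, the ATPase inhibitor, muscarinic receptor 5, P2Y receptors 1 and 2 and GABA transporter 2.

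A morula becomes a blastocyst by filling a cavity with fluid. In the outer cells, the Na+/K+ ATPase moves sodium toward the inside of the embryo, water follows through aquaporins, and tight junctions keep the fluid in. Vacuolar proton pumps acidify lysosomes and endosomes, and calcium pumps and release channels set the calcium content of the endoplasmic reticulum.

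Each array held 2 RNA samples, LIF-siRNA-treated embryos in Cy5 and scrambled-siRNA-treated embryos in Cy3, and 2 such arrays were made without a dye swap. Both groups were whole B6CBF1 embryos with a labelled age of 4 d, and the labels give 1.0 fmol of siRNA in 1 pl, while other sources of the study give other doses. The labels also describe both samples as control embryonic stem cells, which goes against their titles and RNA sources, and the titles were followed. The labels call the arrays biological replicates but no source used here says that they held separate pools of embryos, so p-values measure the spread between 2 arrays, which may be technical.

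The effect of the dye and that of the siRNA cannot be told apart in any ratio below. No spot name begins with leukemia inhibitory factor, so lowering of the targeted transcript was not checked. All 5 markers of morula or trophectoderm (Oct4, Sox2, cadherin 1, keratins 8 and 19) were well above background in both channels of both arrays. Their summed signal was 25750 and 30890 in Cy3 and 18440 and 20420 in Cy5. Sox2 (log2 -3.00 and -1.69) and keratin 8 (-1.73 and -2.16) were down-expression by the criteria given below, cadherin 1 had log2 ratios of 0.69 and 0.26, and Oct4 and keratin 19 differed in sign between the arrays. In RNA from whole embryos, fewer cells of a type and less RNA per cell cannot be told apart. Among markers of other cells, the oocyte spot, bone morphogenetic protein 15, had log2 ratios of 0.35 and 0.77. The summed processed signal of 6 oviduct or fibroblast spots was 2301 and 2690 in Cy3 and 4424 and 4744 in Cy5, most of it from procollagen III alpha 1, with 3 of the 4 tested spots higher in Cy5 on both arrays, one of which, procollagen I alpha 2, was not well above background in Cy3 on either array. The sum of 4 cumulus or granulosa spots was 526.9 and 389.4 in Cy3 and 969.9 and 989.3 in Cy5, with 2 of the 3 tested spots higher on both arrays and 1 split. The sum of 6 blood spots was 4267 and 3767 in Cy3 and 1929 and 1794 in Cy5, most of it from hemoglobin X (log2 -1.30 and -1.27). Over the 6 blood spots, 2 were higher and 3 lower on both arrays, but one of the former had Cy3 and one of the latter Cy5 at background throughout. Lumican and procollagen I alpha 1 were not well above background, and the part of these cells and markers in the results was not tested.

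Values are processed signals (brightness after background subtraction and dye normalization, without unit) and log2 ratios of LIF-siRNA over scrambled siRNA, with array 1 given before array 2. Groups are said not to overlap where both signals of one channel exceed both of the other. This description ignores the pairing within an array, and its share over all probes is not given. A spot was tested when, on each array, Cy3 or Cy5 was well above local background. Of the 62 members, 51 were tested, and 44 of these were well above background in both channels on both arrays. The remaining 7 had a channel at background on at least 1 array, where they passed through the other channel alone. The other 11 members were not tested. Down-expression here means a geometric mean ratio below 0.5, and up-expression a ratio above 2, in a spot whose Cy3 or Cy5 processed signal averaged over 1000.

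By these criteria 5 members were down-expression and 0 were up-expression. They were chloride intracellular channel 4, the 16kD and 42 kDa subunits of the vacuolar proton pump, the calcium channel beta 3 subunit and the calcium pump of slow twitch muscle. Among all gene spots, 2.19% were down-expression and 2.16% up-expression. With well above background in place of the signal threshold, 5 members were down-expression where 4.89% of all gene spots were, and 4 up-expression where 6.45% were, of which the H+/K+ ATPase and the calcium activated 1 chloride channel passed on array 2 through Cy5 alone. With no threshold at all, 6 were down-expression (5.13% of all), including the untested T type alpha 1G calcium channel, and 4 up-expression (6.55%). With normexp background correction and loess the members' counts were 3 and 0, and the shares of all gene spots 1.87% and 1.78%. From array 2 alone the counts were 4 and 0 (3.05% and 2.98% of all), and from array 1 alone 4 and 0 (2.47% and 2.02%). The signal threshold was passed by 15 members, and among all gene spots past it the shares were 5.42% and 5.33%. With limma and Benjamini-Hochberg adjustment, 0 of the 51 members and 0.0% of all 8079 tested probes passed a threshold of 0.05. At an unadjusted limma p under 0.05 there were 14 members, 7 higher and 7 lower, which is 27.5% of the members against 30.7% of all tested probes. Of the 7 higher, 3 had Cy3 at background on array 2, and of the 7 lower, 0 had a channel at background. The adjusted p-values of the 5 down-expression members lay between 0.058 and 0.0743. The limma calls depended on the processing too. With normexp and loess 2 members passed (16kD and chloride intracellular channel 4) where 1.83% of all probes did. With median centring of each array 12 passed, 6 higher and 6 lower, where 17.7% of all probes did, with an intensity trend 8 passed (13.8% of all), and among probes past the signal threshold alone the 5 down-expression members passed (18.7% of all).

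**Figure D1:**
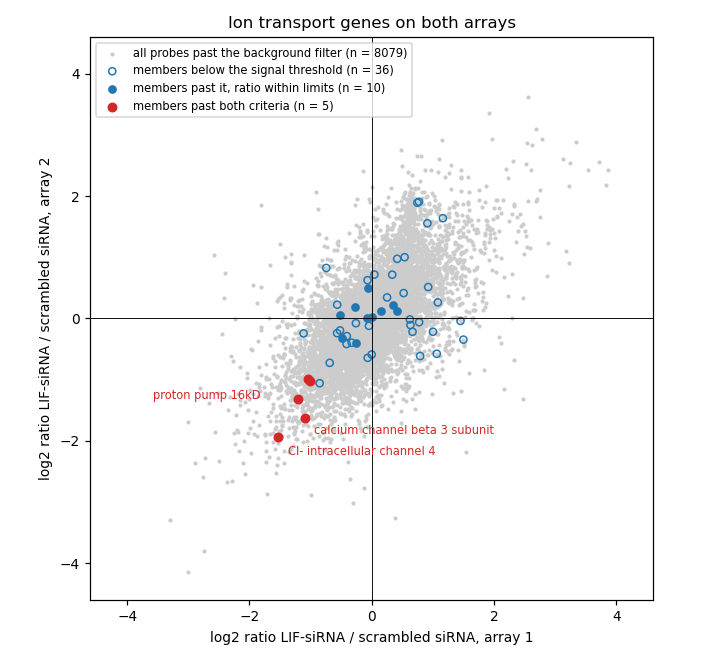
Log2 ratio (LIF-siRNA over scrambled siRNA) of each tested member on array 1 (x axis) and array 2 (y axis), with all tested probes in grey. The 5 down-expression members lie at the lower left, and 17 members lie in quadrants where the sign differs between the arrays.

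Chloride intracellular channel 4, the lowest member, and 16kD, the lowest of the vacuolar pump subunits, are shown with the sequence around a gene start, for reference. The calcium channel beta 3 subunit, whose mean log2 ratio of -1.37 lies below the -1.26 of 16kD, is not shown. The files do not pair names with symbols, so the 5 down-expression members were paired by standard nomenclature with Clic4, Atp6v0c, Atp6v1c1, Cacnb3 and Atp2a2, of which 3 (Clic4, Atp6v0c and Cacnb3) were matched in the copy of the RefSeq promoter table used here (GRCm38.p6), and the other two are named only. Each window runs from 250 bases before to 50 after an annotated start. Capitals mark GGGCGG on either strand (the core of a GC box, bound by Sp family factors). The Clic4 window is chr4:135272711-135273010 and that of the farthest upstream of the listed Atp6v0c starts is chr17:24169629-24169928, both on the minus strand and printed 5′ to 3′.
Clic4: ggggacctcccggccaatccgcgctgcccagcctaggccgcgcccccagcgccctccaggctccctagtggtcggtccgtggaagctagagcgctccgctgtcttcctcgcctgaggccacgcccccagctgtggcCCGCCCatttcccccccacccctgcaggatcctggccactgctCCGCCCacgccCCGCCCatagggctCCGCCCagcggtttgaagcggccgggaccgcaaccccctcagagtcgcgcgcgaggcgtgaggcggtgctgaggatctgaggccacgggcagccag
Atp6v0c: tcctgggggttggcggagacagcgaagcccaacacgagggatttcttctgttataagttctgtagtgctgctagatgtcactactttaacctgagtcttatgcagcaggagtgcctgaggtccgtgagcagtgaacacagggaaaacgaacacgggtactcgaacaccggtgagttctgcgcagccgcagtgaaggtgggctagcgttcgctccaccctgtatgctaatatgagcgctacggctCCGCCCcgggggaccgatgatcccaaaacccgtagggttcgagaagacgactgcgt
The search over both strands covered GGGCGG, the motif CACGTG (the E-box of factors that regulate lysosomal genes, among others) and the motif TTCNNNGAA (a core that STAT factors bind). GGGCGG was found 4 times in the Clic4 window, 1 time in this Atp6v0c window, 2 times in each of the other 2 Atp6v0c windows (of which the nearer shares 72 bases and 1 match with the window shown), and 1 and 4 times in those of Cacnb3. Of all 32851 windows of this length, 35.7% hold it. The E-box and the STAT core were found 0 times in the 6 windows of the 3 genes, so no motif overlapped another, and 7.15% and 8.3% of all windows hold them. A match is a description of letters and not of a bound site.

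By name, the Na+/K+ ATPase, the pump that drives cavity fluid, was represented by 1 subunit that could be tested. Na+/K+ ATPase beta 3, which helps the catalytic subunit reach the membrane, had a signal of 18100 and 14260 in scrambled-siRNA-treated embryos and 17280 and 20190 in LIF-siRNA-treated embryos. Its groups overlapped. The log2 ratio was -0.07 and 0.50, a mean of 0.22 ± 0.40 (SD, n = 2), with an adjusted p of 0.579 in limma, and the mean was 0.061 with median centring. The alpha 4 subunit, the catalytic form of sperm, was not well above background in either channel on either array. The beta 1 subunit was well above background in Cy5 on array 2 alone (28.5), so neither was tested. No other spot named as a Na+/K+ ATPase subunit is among the members.

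FXYD proteins are small membrane proteins that tune the Na+/K+ ATPase, and none of the 3 passed the criteria. FXYD2, the gamma subunit of the kidney pump, had 3611 and 3477 in Cy3 and 2515 and 3626 in Cy5. It was lower on array 1 and nearly level on array 2, with log2 ratios of -0.52 and 0.06 (adjusted limma p 0.559), and the mean of -0.23 became -0.38 with median centring. FXYD5, also called dysadherin, had 98.7 and 123.1 in Cy3 and 141.7 and 164.2 in Cy5, so that the groups did not overlap. Its mean log2 ratio was 0.47 ± 0.08 (SD, n = 2, adjusted limma p 0.204), and 0.26 with normexp and loess. FXYD1, or phospholemman, was not well above background anywhere.

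All 3 aquaporin spots passed the background filter, and 0 passed the signal threshold. Aquaporin 8, which carries water and is found in trophectoderm, had 218.8 and 245.9 in scrambled-siRNA-treated embryos and 317.5 and 492.5 in LIF-siRNA-treated embryos. The LIF-siRNA values lay above both scrambled values. The log2 ratio was 0.54 and 1.00, a mean of 0.77 ± 0.33 (SD, n = 2, limma SE 0.232), with an unadjusted limma p of 0.0224 and an adjusted p of 0.112.

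Aquaporin 1, a water channel of red cells and kidney, went the other way. Its signals were 479.8 and 401.6 in Cy3 and 221.5 and 339.3 in Cy5, again without overlap. The log2 ratio differed by more than its mean between the arrays, at -1.12 and -0.24, with a mean of -0.68 ± 0.62 (SD, n = 2, adjusted limma p 0.191). Aquaporin 2, the vasopressin-controlled channel of the collecting duct, had the dimmest spot of the class, 58.2 and 67.8 in Cy3 and 69.3 and 86.0 in Cy5. Before dye normalization, its Cy3 signal exceeded 95.3% and 95.0% of the blank spots of the arrays. Its mean log2 ratio was 0.30 ± 0.07 (SD, n = 2, adjusted limma p 0.381), and 0.094 with normexp and loess. Over the 4 tested spots of the Na+/K+ ATPase and the aquaporins, the median log2 ratio was 0.26, against -0.004 over all tested probes, with 2 higher on both arrays, 1 lower and 1 split. This median was 0.09 on array 1 and 0.42 on array 2, and 0.14 with normexp and loess.

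**Figure D2:**
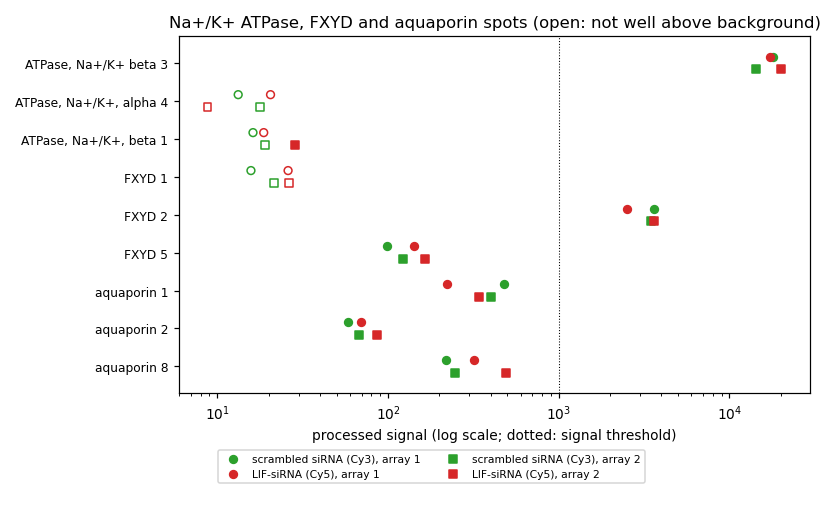
Processed signal on each array (log axis, no unit) of the Na+/K+ ATPase subunits, FXYD proteins and aquaporins in scrambled-siRNA (Cy3) and LIF-siRNA (Cy5) embryos, with open symbols for signals not well above background. Aquaporin 8 was higher and aquaporin 1 lower in LIF-siRNA embryos on both arrays, and Na+/K+ ATPase beta 3 differed in direction between the arrays.

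Genes of the other steps of cavity formation were taken as a list of 60 spots, covering tight and gap junction proteins, cadherin 1 and catenins, sodium, chloride and bicarbonate carriers, carbonic anhydrases, ATP synthase and protein kinase C, although some names share only the first words of a family. Of these, 55 were tested, 26 passed the signal threshold, and 0 were up- or down-expression, where 5.33% and 5.42% of all gene spots past that threshold were. From array 2 alone 1 was up-expression and 2 were down-expression (2.98% and 3.05% of all gene spots). From array 1 alone the counts were 0 and 1 (2.02% and 2.47%). With median centring they were also 0 and 1, against 135 and 261 among all gene spots. In limma 0 of the 55 passed the adjusted threshold and 10 an unadjusted p under 0.05 (6 higher and 4 lower), which is 18.2% of the tested spots against 30.7% of all tested probes. This 0 depended on the processing. Gap junction protein beta 5 passed with normexp and loess (adjusted limma p 0.0498), where 1.83% of all probes did. With median centring and with an intensity trend it passed too, as did protein kinase C beta and ATP synthase F0 subunit c, among others. Those settings called 17.7% and 13.8% of all probes. Over the 55 tested spots the median log2 ratio was 0.002, with 16 spots higher on both arrays, 17 lower and 22 split. With no signal threshold 2 would be up-expression and 2 down-expression (6.55% and 5.13% of all gene spots), and these 4 are named after their values were seen. Gap junction protein beta 1 had log2 ratios of 0.61 and 1.51 and tight junction protein 3 had -0.13 and -2.78, so both differed widely between the arrays. Gap junction protein beta 5, also a connexin, had 498.6 and 808.3 in Cy3 and 118.5 and 138.8 in Cy5, a ratio 4.95-fold lower (log2 -2.07 and -2.54, adjusted limma p 0.058). Its mean log2 ratio of -2.31 became -1.69 with normexp and loess. Protein kinase C beta, a signaling kinase, had 42.5 and 54.3 in Cy3 and 153.9 and 203.0 in Cy5, a ratio of 3.68 (log2 1.86 and 1.90, adjusted limma p 0.058), which became a log2 ratio of 0.82 with normexp and loess.

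The vacuolar proton pump had 6 spots for 5 names, all tested, and its subunits did not share a direction. The membrane subunit named 16kD, part of the rotor that carries protons, had 9258 and 9684 in scrambled-siRNA-treated and 4025 and 3877 in LIF-siRNA-treated embryos. The groups did not overlap, and the ratio was 2.40-fold lower (log2 -1.20 and -1.32, mean -1.26 ± 0.08, SD, n = 2, limma SE 0.208, adjusted p 0.0613). The 42 kDa subunit, of the stalk that joins the ATPase head to the membrane part, had 7573 and 8180 in Cy3 and 3754 and 4048 in Cy5. It was 2.02-fold lower, with almost the same log2 ratio on both arrays (mean -1.01 ± 0.002, SD, n = 2, adjusted limma p 0.0741).

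The spot named lysosomal I was lower on both arrays as well but did not pass the signal threshold. It had 550.5 and 497.7 in Cy3 and 305.0 and 238.9 in Cy5, with log2 ratios of -0.85 and -1.06 (adjusted limma p 0.0817). Both spots named subunit 1 were lower on array 1 and higher on array 2. The brighter clone had 4377 and 3958 in Cy3 and 3626 and 4506 in Cy5, and its log2 ratios were -0.27 and 0.19. The other clone had 840.4 and 465.8 in Cy3 and 568.1 and 544.6 in Cy5, and log2 ratios of -0.56 and 0.23.

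The 9.2 kDa subunit, another membrane part, was the only vacuolar pump spot with a higher signal in LIF-siRNA-treated embryos on both arrays. Its signals were 858.7 and 1069 in Cy3 and 1098 and 1246 in Cy5 (mean log2 ratio 0.29 ± 0.09, SD, n = 2, adjusted limma p 0.399). The median log2 ratio over the 6 spots was -0.56. For the mitochondrial ATP synthase, which runs the related rotary reaction to make ATP, the median over 8 spots was 0.05, but it was -0.17 on array 1 and 0.35 on array 2, with 3 spots higher on both arrays, 3 lower and 2 split. Its F0 subunit c had 5701 and 5887 in Cy3 and 2723 and 3242 in Cy5 (log2 -1.07 and -0.86, adjusted limma p 0.0805). Its F0 subunit g had log2 ratios of 0.67 and 0.77 (adjusted limma p 0.105). Both were chosen for mention after their values were seen.

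**Figure D3:**
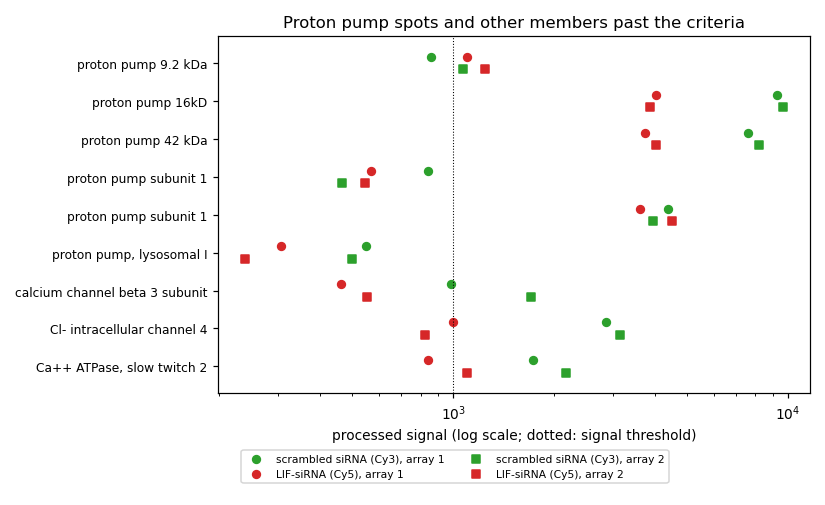
Processed signal on each array (log axis, no unit) of the vacuolar proton pump spots and the other down-expression members in scrambled-siRNA (Cy3) and LIF-siRNA (Cy5) embryos. The 16kD and 42 kDa subunits were lower in LIF-siRNA embryos on both arrays, and both clones of subunit 1 changed direction between the arrays.

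Among the other ATPases, the calcium pump named slow twitch 2 (SERCA2, which returns calcium to the endoplasmic reticulum in most cells) was down-expression. Its signals were 1734 and 2176 in Cy3 and 843.5 and 1097 in Cy5. The groups did not overlap, and the mean ratio was 2.02-fold lower (log2 -1.04 and -0.99, SD 0.04, n = 2, adjusted limma p 0.0743), so that array 2 alone did not reach the ratio threshold. The fast twitch form was not well above background in Cy5 on array 1 or in Cy3 on array 2, so its ratio was not measured on both sides. The ubiquitous calcium pump had 0.42 and 0.98.

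The ATPase inhibitor, which holds back ATP hydrolysis by the mitochondrial synthase, was the brightest spot of the class. It had 3410 and 3528 in Cy3 and 2420 and 2832 in Cy5, with log2 ratios of -0.49 and -0.32 (adjusted limma p 0.261). The copper pump, which is needed for copper export, had log2 ratios of -0.07 and 0.01. The alpha subunit of the H+/K+ ATPase, the acid pump of the stomach, had 56.0 and 31.0 in Cy3 and 95.5 and 116.3 in Cy5. In Cy3 it was measured on 1 of the 2 arrays, and on array 2 it passed the filter through Cy5 alone. Its log2 ratio was 0.77 on array 1, and the listed ratio of array 2 is against a channel at background. Its mean log2 ratio of 1.34, among the 5 highest of the members, became 0.51 with normexp and loess.

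The lowest ratio of all members belonged to chloride intracellular channel 4, a protein that moves between cytosol and membranes. Its signals were 2870 and 3156 in scrambled-siRNA-treated and 996.7 and 822.4 in LIF-siRNA-treated embryos. The groups lay far apart, at 3.32-fold lower in LIF-siRNA-treated embryos (log2 -1.53 and -1.94, mean -1.73 ± 0.29, SD, n = 2, limma SE 0.227, adjusted p 0.058). The remaining 3 chloride spots were higher on both arrays. Chloride channel 3, an exchanger of endosomes, had 2908 and 3204 in Cy3 and 3220 and 3506 in Cy5, a mean log2 ratio of 0.14 ± 0.01 (SD, n = 2, adjusted limma p 0.678), which turned to -0.012 with median centring.

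Both calcium-activated chloride channel members, proteins that modulate chloride currents of epithelia, were dim in Cy3. Calcium activated 1 had 45.89 and 18.97 in Cy3 and 102.8 and 59.2 in Cy5. Its log2 ratio was 1.16 on array 1, while on array 2 it passed the filter through Cy5 alone, so that the listed mean of 1.40 rests in part on a Cy3 channel at background. Calcium activated 3 had 94.4 and 77.0 in Cy3 and 177.3 and 226.5 in Cy5 (mean log2 ratio 1.23 ± 0.46, SD, n = 2, adjusted limma p 0.0755). With normexp background correction and loess the mean log2 ratios of both were smaller, 0.43 and 0.69.

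The calcium channel beta 3 subunit, an inner subunit that brings voltage-gated calcium channels to the membrane, was the last of the 5 down-expression members. It had 987.5 and 1713 in Cy3 and 460.8 and 551.3 in Cy5. The groups did not overlap, and the mean ratio was 2.58-fold lower (log2 -1.10 and -1.64, SD 0.38, n = 2, adjusted limma p 0.064). On array 1 alone its signal was below 1000 in both channels.

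The pore and gamma subunits of calcium channels changed sign between the arrays. These spots, like the release channel for inositol trisphosphate below, were chosen for mention after their values were seen. T type alpha 1H had log2 ratios of 1.06 and -0.58, and gamma subunit 1 had 0.79 and -0.61. T type alpha 1G was not well above background on array 1 and so was not tested, and on array 2 it had 282.5 in Cy3 and 45.6 in Cy5 (log2 -2.63).

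Channels that release stored calcium, 3 in number, all differed in sign between the arrays. Ryanodine receptor 1, the release channel of skeletal muscle, had 943.0 and 1119 in Cy3 and 940.4 and 1133 in Cy5. Its log2 ratio was -0.004 and 0.02, the mean nearest to 0 among the tested members (adjusted limma p 0.986). The inositol trisphosphate receptor 1, the channel that gives the calcium oscillations of the fertilized egg, had 157.4 and 294.3 in Cy3 and 444.9 and 231.5 in Cy5, with log2 ratios of 1.50 and -0.35 (adjusted limma p 0.450).

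Potassium channels, which set the resting potential, gave 13 spots for 12 names, of which 8 were tested and 0 passed the signal threshold. Of the tested spots 6 were lower on both arrays, 1 was higher and 1 was split (one of the 6, shaker related member 3, had Cy5 at background on array 1). The median log2 ratio was -0.26 (array 1 alone -0.16, array 2 alone -0.23), which became -0.067 with normexp and loess. Over all tested probes 36.8% were lower and 36.7% higher on both arrays. The brightest spot, the eag-related channel H member 2, had 686.4 and 894.2 in Cy3 and 665.1 and 822.5 in Cy5, a mean log2 ratio of -0.08 ± 0.05 (SD, n = 2, adjusted limma p 0.813). The lowest adjusted p of the class was 0.107, for the Isk-related gene 4, an accessory subunit with log2 ratios of -0.69 and -0.73, whose mean of -0.71 became -0.34 with normexp and loess. It was chosen for mention after its values were seen.

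Voltage-gated and epithelial sodium channels gave 3 dim spots with a median log2 ratio of 0.36, but it was 0.75 on array 1, -0.06 on array 2 and 0.038 with normexp and loess. The type I beta polypeptide, an accessory subunit of voltage-gated sodium channels that also acts in adhesion, had 272.9 and 201.4 in Cy3 and 458.0 and 748.4 in Cy5. The groups did not overlap, but the log2 ratios of 0.75 and 1.89 lay far apart (mean 1.32 ± 0.81, SD, n = 2, adjusted limma p 0.0933). The beta subunit of the epithelial channel, which lets sodium into epithelial cells, had log2 ratios of 0.77 and -0.06, and the voltage-gated type VIII alpha subunit had -0.11 on array 2 and was not well above background in Cy3 on array 1.

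Among the ligand-gated and transient receptor members, ChaK, a magnesium and calcium channel fused to a kinase, had the brightest spot. Its signals were 6021 and 7033 in Cy3 and 8061 and 7659 in Cy5, with log2 ratios of 0.42 and 0.12 (adjusted limma p 0.440), and the mean of 0.27 became 0.15 with median centring. P2X receptor 4, an ATP-gated cation channel, had 2810 and 3048 in Cy3 and 2351 and 2312 in Cy5. Neither pair of groups overlapped, and the log2 ratio of P2X receptor 4 was -0.26 and -0.40 (adjusted limma p 0.343).

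The nicotinic receptor subunits, which form the acetylcholine-gated channel of muscle, numbered 4 with a median log2 ratio of 0.54 (array 1 alone 0.80, array 2 alone 0.24), which became 0.15 with normexp and loess. The alpha 1 subunit among them had Cy3 at background on array 2. The beta 1 subunit had 74.5 and 124.8 in Cy3 and 203.6 and 121.4 in Cy5, with log2 ratios of 1.45 and -0.04 (adjusted limma p 0.297). The NMDA1 subunit, the obligatory part of NMDA glutamate receptors, also differed between the arrays, at 0.62 and -0.02 (adjusted limma p 0.458). GABA transporter 2, which takes up GABA, had nearly the same log2 ratio on both arrays, -0.41 and -0.42 (adjusted limma p 0.245), with signals of 58.4 and 61.5 in Cy3 and 43.9 and 46.0 in Cy5, but the mean was -0.17 with normexp and loess and -0.18 with median centring. Muscarinic receptor 5 and kainate receptor 5 were not well above background, and their listed log2 ratio of 0 on both arrays is not a measured ratio.

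**Figure D4:**
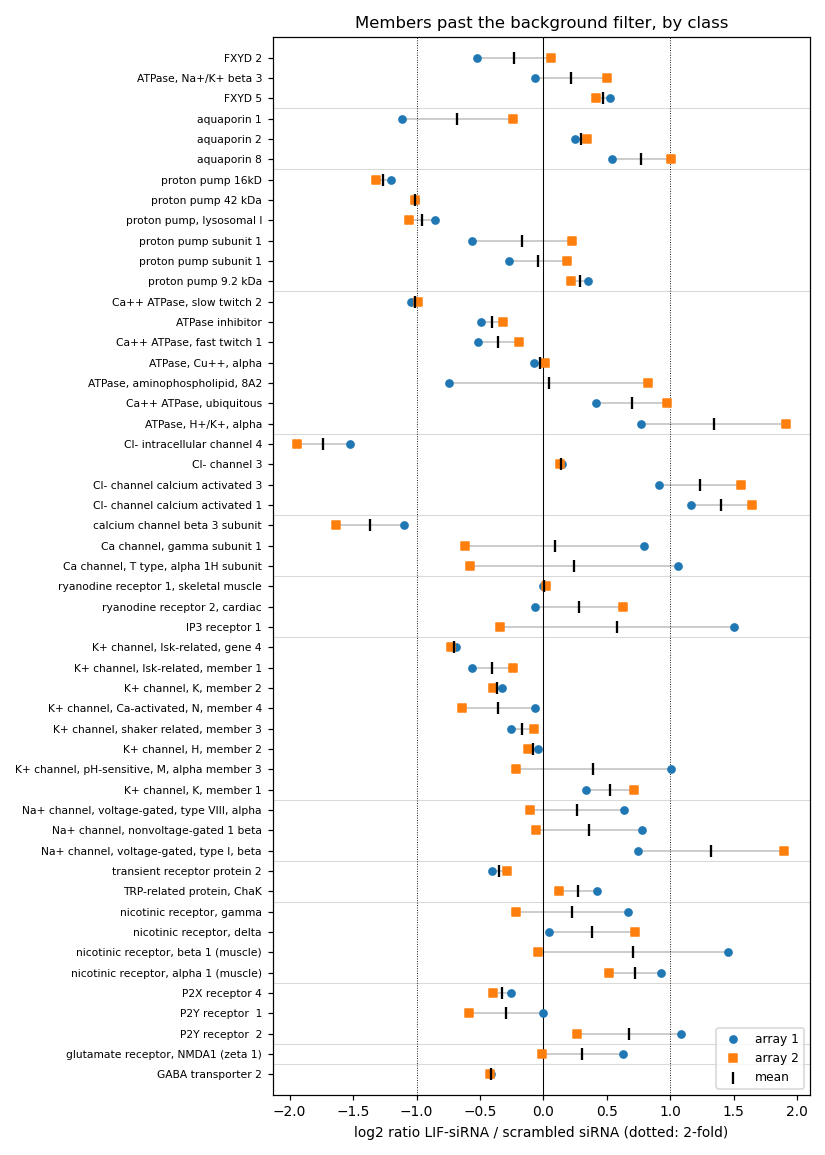
Mean log2 ratio (LIF-siRNA over scrambled siRNA) of each tested member by class, with the value on each array. The down-expression members fall in the vacuolar pump, other ATPase, chloride and calcium channel classes, and 6 of 8 potassium channel spots lie below 0 on both arrays, one of them with Cy5 at background on array 1.

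Across the 51 tested members the median log2 ratio was 0.09, against -0.004 over all tested probes, but it was -0.004 on array 1 alone, -0.061 on array 2 alone and 0.008 with normexp and loess. On both arrays 15 members were higher and 19 lower, and 17 were split. Of the 15 higher, 3 had a channel at background on at least 1 array, as did 2 of the 19 lower. Their direction was thus not measured on both sides. The shares of members higher and lower were 29.4% and 37.3%, against 36.7% and 36.8% of all tested probes. The sign was shared by both arrays for 66.7% of members and 73.5% of all tested probes. Between the arrays the Pearson r of the members' ratios was 0.561 and the Spearman rho 0.484 (across 51 spots of the same arrays and dyes, which are not independent replicates), against 0.639 and 0.632 over all tested probes.

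The members were also described by brightness, without a test. The 15 members past the signal threshold had a median of -0.23 (-0.27 on array 1 and 0.01 on array 2), with 3 higher on both arrays, 7 lower and 5 split, an r between the arrays of 0.910 and a median SD of 0.100. The corresponding shares among all probes past the threshold were 39.8% higher and 39.0% lower, with a median of 0.002 and an r of 0.758. The 36 tested members below the threshold had a median of 0.27 (0.38 on array 1 and -0.07 on array 2), with 12 higher, 12 lower and 12 split, and a median SD of 0.434. On array 2 the order of these medians was thus the reverse of that on array 1. Among all tested probes below it, 34.3% were higher and 35.0% lower on both arrays. The 3 higher and 2 lower members with a channel at background are among the 36.

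**Figure D5:**
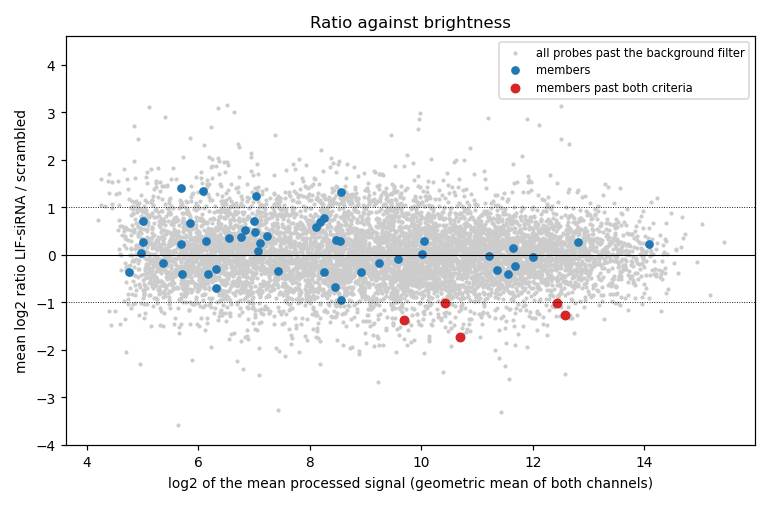
Mean log2 ratio (LIF-siRNA over scrambled siRNA) of each tested member against the log2 of its processed signal (geometric mean of both channels), with all tested probes in grey and dotted lines at a ratio of 2 and 0.5. The 5 down-expression members, of which calcium channel beta 3 is the dimmest, are brighter than the 5 members with the highest ratios.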

How the data were processed

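The 2 arrays were Agilent two-color cDNA arrays. The deposited files are output of Feature Extraction, whose version in the file headers differs from that in the study's methods. The deposited intensity columns hold each spot's mean brightness, its local background and a background-subtracted, dye-normalized processed signal in which surrogates stand for low values. The deposited log10 ratio is of Cy5 over Cy3 after the authors' rank-consistent lowess. A deposited log2 table of the series tracked the average brightness of both channels (r 0.998 on both arrays) and not the ratio (r 0.0121 and 0.0114), so it gave no comparison. No gene symbols are given, so members were matched by name.

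After conversion to log2, and without control spots and 23 outlier-marked gene spots, 8079 probes were tested with limma 3.58.1 in R 4.3.3 (lmFit and eBayes, intercept only, two-sided, Benjamini-Hochberg over all probes, threshold 0.05), checked on simulated data. Summaries and figures were made in Python 3.11.15 (numpy 2.4.6, pandas 2.3.3, scipy 1.17.1, matplotlib 3.10.9). Genes are named where they encode Na+/K+ ATPase subunits, FXYD proteins or aquaporins, pass the criteria, are the 5 highest or lowest with the same sign on both arrays, or are the brightest of a class. Others are said to be chosen after their values were seen or are given in passing. Members and lists were chosen with earlier results of these data known.

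The alternatives were normexp (offset 50) with loess, median centring, each replicate left out, other rules for signal, outliers, names and dim probes, an intensity trend, and the methods' t-test. Precision is limited by the number of arrays.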

Additional observations from a re-analysis of the deposited data

How the results depend on the processing

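No paired analysis was possible because the log ratio is already the paired difference within an array, which every test here used, so no further block for the slide or the replicate can be fitted. Of the 5 down-expression members, 3 passed under normexp with loess (the 16kD subunit, calcium channel beta 3 and chloride intracellular channel 4), while the 42 kDa subunit and SERCA2, at log2 -0.998 and -0.93, came just short of the ratio threshold. Leaving out a replicate gave 4 either way (3.05% and 2.47% of all gene spots without replicate 1 and 2), without SERCA2 when replicate 1 was left out and without calcium channel beta 3 when replicate 2 was. Up-expression members numbered 4 rather than 0 without a signal threshold (6.55% of all gene spots) and 4 with the rule of well above background in its place (6.45%): the H+/K+ ATPase, calcium activated chloride channels 1 and 3, and the sodium channel type I beta polypeptide, of which the H+/K+ ATPase and calcium activated 1 had Cy3 at background on array 2. The 0 calls of limma became 2 with normexp and loess (1.83% of all probes called), 12 with median centring (6 higher and 6 lower, 17.7% of all), 8 with an intensity trend (13.8%) and 5 among probes past the signal threshold (18.7%). The methods' t-test gave 0 after Benjamini-Hochberg adjustment (0.0% of all). Before adjustment it gave 6, but no share over all probes was counted, so the 6 cannot be set against them. The members' median of 0.09 became 0.008 with normexp and loess, 0.048 with both channels above background, and between -0.061 and -0.004 with 1 array left out. With median centring the log2 ratios of ryanodine receptor 1 and chloride channel 3 turned to -0.11 and -0.012. The causes of these changes were not tested.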
